A study of Homo sapiens with 8 samples.

Results

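The 38 genes described here maintain or disturb the redox balance of a macrophage: the transcription factor NRF2 with its inhibitors and partners, the glutathione, thioredoxin and peroxiredoxin enzymes, the alpha-arrestins TXNIP and ARRDC4, the enzymes that supply NADPH, the superoxide dismutases with catalase, and the phagocyte NADPH oxidase. They were taken by name from a written list, which was chosen with earlier results of these data known. Of the 38, 37 had a probe set among the 21448 gene probe sets of the array, which carry single names for 17750 genes. The remaining gene, PRDX5, carried no named probe set and has no value here. SOD2 was named through an identifier that the study's supplementary tables pair with that gene.

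The cells were THP-1, a human monocytic leukaemia line, which PMA (100 ng/mL) had turned into adherent macrophages in every condition, controls included. Expression was read on 8 arrays, 2 for each of 4 conditions. These were untreated cells, cells given LPS at 100 ng/mL for 3 h, cells given the anthracycline epirubicin at 0.25 µg/mL for 24 h, and cells given epirubicin and then LPS. The design gives 4 comparisons, the effect of LPS without and with epirubicin and the effect of epirubicin without and with LPS, and the difference between the former pair is the interaction. The labels do not say whether the 2 arrays of a condition came from separate cultures, and the p-values reflect how far these arrays differ from one another, possibly for technical reasons alone.

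As background, NRF2 (encoded by NFE2L2) is held in the cytoplasm and marked for degradation by KEAP1. Oxidants and electrophiles modify KEAP1, and NRF2 then enters the nucleus, pairs with a small MAF protein and binds antioxidant response elements in the promoters of genes for glutathione synthesis, thioredoxin reduction and NADPH supply. Much of this control acts on the NRF2 protein, which an RNA measurement does not see. The phagocyte NADPH oxidase works in the opposite sense: it passes electrons from NADPH to oxygen, and macrophages stimulated through toll-like receptors use it to make superoxide.

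Values are log2 expression as deposited, so a difference of 1 is a change of 2-fold, and each value is read only against the same gene in other arrays. The arrays had means of 6.70 to 6.73, duplicates correlated at 0.985 to 0.987 over all probe sets, and no array stood apart. Of 8 macrophage markers, CD163 and MRC1 had means over all arrays not above the 95th percentile of the negative control probe sets (6.52), and the other 6 exceeded it. So did 3 of 4 promyelocytic granule genes (AZU1, PRTN3 and CTSG, not MPO), 1 of 4 lymphocyte markers (CD79A) and 1 of 5 fibroblast and epithelial markers (COL1A2). The monocyte receptor CD14 fell in all 4 comparisons (log2 changes of -2.73 to -1.04), CSF1R fell with LPS (-1.32 and -1.12) and the granule protease CTSG rose with LPS (2.42, without epirubicin) and fell with epirubicin among LPS-treated cells (-1.75). The other calls among these markers were CD79A, higher with LPS (1.36, without epirubicin), and KRT14, higher with LPS after epirubicin (1.23), while LYZ (0.77), SPI1 (0.53) and CD68 (-0.06) were not called with LPS alone. The CTSG means without LPS (6.05 untreated and 6.04 with epirubicin) lie below 6.52. So do both KRT14 means (3.07 with epirubicin and 4.29 with both agents), and the sizes of these rises are not exact. The part of these markers in the changes of the redox genes was not tested. A gene was called changed at an unadjusted p of at most 0.01 with a change of at least 2-fold, the threshold of the study, in a limma fit over all gene probe sets, and Benjamini-Hochberg adjusted p-values from that fit are given beside the calls. With 2 arrays a condition, arrays that do not overlap are common: this held for 52.7% and 52.3% of all gene probe sets in the LPS comparisons without and with epirubicin, and for 41.5% and 41.6% in the epirubicin comparisons without and with LPS.

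More of these genes were called with LPS than with epirubicin, and the same held over all gene probe sets. Of all gene probe sets, 11.7% and 12.1% were called with LPS, and 2.26% and 2.66% with epirubicin. The list was chosen with earlier results of these data known, so its shares are a description. In the LPS comparison without epirubicin, 6 rose and 1 fell among the 37, or 18.9%, against 11.7% of all gene probe sets called in that comparison (5.4% higher and 6.28% lower). With epirubicin, 10 rose and 2 fell, or 32.4%, against 12.1% of all gene probe sets (5.46% higher and 6.59% lower). All but 1 of the 37 (36 genes) had a condition mean of at least 6, and among the 11321 probe sets at that level the shares called were 20.6% without and 21.1% with epirubicin, so the members' share without epirubicin was no higher than among probe sets of that level. The median log2 change over the 37 was 0.17 without and 0.26 with epirubicin, and -0.05 and -0.03 over all probe sets. The 7 genes NFE2L2, GCLM, TXNRD1, SRXN1, SOD2, NCF1 and TXNIP were called in both LPS comparisons, each in the same direction both times. A further 5 (KEAP1, GCLC, NXN, ME1 and OSGIN1) passed with epirubicin and not without, although none of them passed the interaction test, and 24 of the 37 were called in no comparison of conditions. The cultures were measured in bulk, so a smaller share of cells making a transcript and less transcript per cell cannot be told apart.

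**Figure D1:**
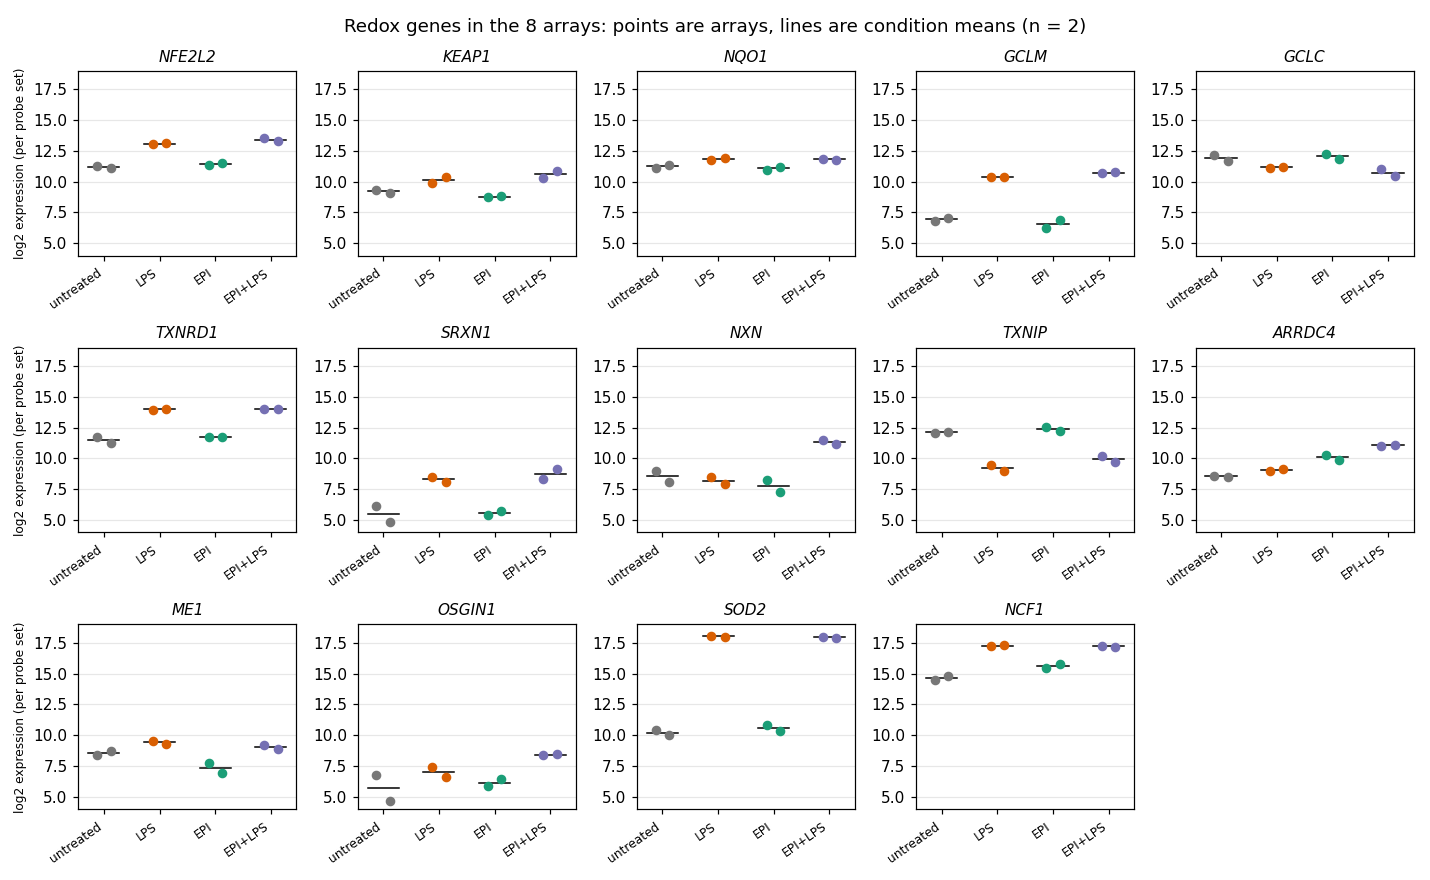
Log2 expression of 14 redox genes in each of the 8 arrays, with the 2 arrays of a condition as points and the condition mean as a line. GCLM, TXNRD1, SRXN1, SOD2 and NFE2L2 are higher with LPS in every array, TXNIP is lower with LPS, ARRDC4 is higher with epirubicin, and NXN is high only in the 2 arrays with both agents (11.48 and 11.14).

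Among the genes of transcriptional control, NFE2L2 rose with LPS whether or not epirubicin was present. It read 11.26 and 11.09 in the untreated arrays, 13.06 and 13.10 with LPS, 11.33 and 11.50 with epirubicin and 13.53 and 13.30 with both. The 4 arrays with LPS lie together, well above the 4 without. The log2 change was 1.91 ± 0.23 (SE; limma, adjusted p = 0.0012) without epirubicin and 2.00 ± 0.23 (adjusted p = 0.000902) with it.

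KEAP1, the adaptor that targets NRF2 for degradation, was higher with LPS as well, and passed the threshold only in the cells that had received epirubicin. It read 9.34 and 9.08 untreated, 9.90 and 10.35 with LPS, 8.71 and 8.83 with epirubicin and 10.32 and 10.86 with both. Its mean was highest with both agents and lowest with epirubicin alone, and no array with LPS overlapped an array without. The log2 change with LPS was 1.82 ± 0.29 after epirubicin (limma, adjusted p = 0.00456) and 0.92 ± 0.29 without (adjusted p = 0.0824), and these 2 changes differed by 0.90 ± 0.40 (interaction, adjusted p = 0.695), which did not pass. MAFF and MAFG, small MAF partners of NRF2, and BACH1, a repressor that competes for the same elements, had log2 changes with LPS of 0.46 to 1.14 and none was called. MAFF after epirubicin gave 0.95 ± 0.24 (limma, adjusted p = 0.0385), just under 2-fold. The 1.14 was MAFG after epirubicin, from an epirubicin mean (6.21) below 6.52, the 95th percentile of negative controls.

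Glutathione is built from glutamate, cysteine and glycine, and the first, rate-limiting step is made by glutamate-cysteine ligase, a pair of a catalytic subunit (GCLC) and a modifier subunit (GCLM) that raises its activity. The 2 subunits moved in opposite directions with LPS. GCLM read 6.80 and 7.06 untreated, 10.38 and 10.35 with LPS, 6.24 and 6.89 with epirubicin and 10.70 and 10.77 with both. It rose 10.8-fold without epirubicin (log2 change 3.43 ± 0.28, limma, adjusted p = 0.000135) and 18.0-fold with it (4.17 ± 0.28, adjusted p = 4.7e-05). Epirubicin array 1 (6.24) lies below 6.52, the 95th percentile of negative controls, so the size of the rise with epirubicin is not exact.

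GCLC read 12.19 and 11.69 untreated, 11.14 and 11.18 with LPS, 12.28 and 11.87 with epirubicin and 11.02 and 10.43 with both. All 4 arrays with LPS were below all 4 without it. The fall was called in the epirubicin-treated cells (log2 change -1.35 ± 0.30, limma, adjusted p = 0.0243) and not without epirubicin (-0.78 ± 0.30, adjusted p = 0.161). That call was lost without epirubicin array 1 (-1.15) or without array 2 of both agents (-1.06). GSS, which adds the glycine, GSR, which reduces oxidised glutathione, and the glutathione peroxidases GPX1 and GPX4 had log2 changes between -0.37 and 0.71 in the 4 comparisons and none was called.

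The promoter of GCLM is shown because it holds the antioxidant response element core TGACNNNGC, the sequence read by NRF2 and small MAF, and because this gene had the second largest rise with LPS among the 37. The 250 bases before the start in RefSeq (GRCh38.p14, chr1:93909431-93909680, minus strand) are given 5′ to 3′ with the match, which lies on the opposite strand 34 bases before the start, in capitals.
GCLM: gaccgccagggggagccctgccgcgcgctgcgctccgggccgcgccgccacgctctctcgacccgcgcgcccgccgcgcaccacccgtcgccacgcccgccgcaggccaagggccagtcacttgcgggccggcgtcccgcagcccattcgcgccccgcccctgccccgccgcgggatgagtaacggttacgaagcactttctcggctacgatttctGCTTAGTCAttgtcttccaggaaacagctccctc

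In the thioredoxin system, which passes electrons from NADPH to oxidised protein thiols and to peroxiredoxins, TXNRD1 and SRXN1 rose with LPS, while the thioredoxins and peroxiredoxins gave no call. TXNRD1, the cytosolic thioredoxin reductase, read 11.77 and 11.29 untreated, 13.93 and 14.03 with LPS, 11.76 and 11.70 with epirubicin and 14.03 and 14.03 with both. The rise was 2.45 ± 0.25 on the log2 scale without epirubicin (limma, adjusted p = 0.000436) and 2.30 ± 0.25 with it (adjusted p = 0.000647), and the arrays of both LPS conditions lie close together.

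SRXN1, or sulfiredoxin, repairs over-oxidised peroxiredoxins. It read 6.17 and 4.81 untreated, 8.52 and 8.09 with LPS, 5.38 and 5.70 with epirubicin and 8.37 and 9.18 with both. Its means without LPS lie below 6.52, the 95th percentile of negative controls, so the low end of this contrast is poorly measured, yet no LPS array overlapped one without LPS. The log2 changes were 2.81 ± 0.46 (limma, adjusted p = 0.00609) and 3.23 ± 0.46 (adjusted p = 0.00291). TXN, TXN2 and the measured peroxiredoxins PRDX1, PRDX2, PRDX3, PRDX4 and PRDX6 had log2 changes with LPS of -0.83 to 0.57, none of them called.

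The window before TXNRD1 also holds the element core, and is shown for comparison with GCLM. RefSeq gives TXNRD1 more than 1 start, and this is the first window (GRCh38.p14, chr12:104215529-104215778, plus strand), with the match 99 bases before the start in capitals. A further match, on the opposite strand 8 bases before the start, runs past the end of the letters shown and is not marked. The second window, not shown, held a match 102 bases before its start.
TXNRD1: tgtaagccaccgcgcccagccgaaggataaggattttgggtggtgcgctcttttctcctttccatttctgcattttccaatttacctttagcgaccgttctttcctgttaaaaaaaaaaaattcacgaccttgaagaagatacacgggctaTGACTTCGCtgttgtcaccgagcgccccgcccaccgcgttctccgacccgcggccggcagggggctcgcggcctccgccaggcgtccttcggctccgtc

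NXN, or nucleoredoxin, a thioredoxin-family protein that also binds and restrains Dishevelled in Wnt signalling, had a pattern of its own among the 37. It read 8.97 and 8.12 in the untreated arrays, 8.50 and 7.88 with LPS, 8.22 and 7.28 with epirubicin and 11.48 and 11.14 with both. The arrays of the first 3 conditions overlap one another, and only the 2 arrays with both agents stand above them. Epirubicin raised it 8.69-fold in LPS-treated cells (log2 change 3.12 ± 0.42, limma, adjusted p = 0.0512) and gave -0.80 ± 0.42 without LPS (adjusted p = 0.562). LPS likewise raised it 11.8-fold after epirubicin (3.56 ± 0.42, adjusted p = 0.000984) and gave -0.36 ± 0.42 without (adjusted p = 0.683).

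The interaction for NXN was 3.92 ± 0.59 on the log2 scale (95% confidence interval 2.57 to 5.27, limma adjusted p = 0.327), which did not pass an adjusted p of 0.05. This was the largest interaction among the 37 genes, and its adjusted p ranged from 0.000841 to 0.722 over the alternative settings, the lowest with a prior variance that follows the expression level. No promoter motif searched here was found in its windows.

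TXNIP and ARRDC4 are closely related alpha-arrestins. Both restrain glucose uptake and both are known targets of the glucose-sensing factor MondoA, and TXNIP in addition binds and inhibits thioredoxin. Here they parted with LPS, where TXNIP fell and ARRDC4 gave no call. With epirubicin ARRDC4 rose, and TXNIP was on the same side (log2 changes of 0.29 without LPS and 0.73 with it) but was not called. TXNIP read 12.10 and 12.14 untreated, 9.45 and 9.00 with LPS, 12.57 and 12.26 with epirubicin and 10.23 and 9.69 with both. Every array with LPS was below every array without. The log2 change was -2.89 ± 0.29 (limma, adjusted p = 0.000395) without epirubicin and -2.46 ± 0.29 (adjusted p = 0.000983) with it.

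Within the LPS-treated cells, TXNIP was 0.73 ± 0.29 higher on the log2 scale where epirubicin was given, which did not pass (limma, adjusted p = 0.41). ARRDC4 read 8.61 and 8.46 untreated, 8.97 and 9.10 with LPS, 10.30 and 9.89 with epirubicin and 11.02 and 11.13 with both. All 4 arrays with epirubicin were above all 4 without it, with no overlap. It rose 2.94-fold with epirubicin alone (log2 change 1.56 ± 0.24, limma, adjusted p = 0.154) and 4.12-fold in the presence of LPS (2.04 ± 0.24, adjusted p = 0.0464). With LPS its log2 change was 0.50 ± 0.24 (adjusted p = 0.267) and, after epirubicin, 0.98 ± 0.24 (adjusted p = 0.0357), just under 2-fold.

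The 250 bases before each start are shown because the genes are related yet moved apart with LPS. The sequences are from RefSeq (GRCh38.p14), at chr15:97960453-97960702 on the plus strand for ARRDC4 and chr1:145996580-145996829 on the minus strand for TXNIP. Capitals mark the E-box CACGTG, which is the same on both strands and was found once, 210 bases before the ARRDC4 start, and not in the TXNIP window. Only this exact string was searched. Variants of it, such as the cacgag in the TXNIP window, were not counted, so the TXNIP window may hold related elements. Any link of these letters to the changes was not tested.
ARRDC4: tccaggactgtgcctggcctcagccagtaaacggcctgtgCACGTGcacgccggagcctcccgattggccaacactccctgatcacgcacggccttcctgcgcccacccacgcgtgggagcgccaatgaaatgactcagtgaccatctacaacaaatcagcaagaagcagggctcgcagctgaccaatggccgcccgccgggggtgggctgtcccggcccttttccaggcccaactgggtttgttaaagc
TXNIP: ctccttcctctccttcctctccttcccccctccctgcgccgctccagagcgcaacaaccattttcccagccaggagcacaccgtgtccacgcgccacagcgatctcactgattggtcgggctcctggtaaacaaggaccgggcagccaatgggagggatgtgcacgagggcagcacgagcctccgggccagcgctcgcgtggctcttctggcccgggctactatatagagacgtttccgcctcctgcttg

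Among the enzymes that supply NADPH or use it to reduce quinones, NQO1, the quinone reductase often taken as the standard readout of NRF2, was not called. It read 11.14 and 11.36 untreated, 11.79 and 11.94 with LPS, 10.93 and 11.22 with epirubicin and 11.86 and 11.74 with both. The arrays with LPS were all above those without, by a log2 change of 0.62 ± 0.24 (limma, adjusted p = 0.156) and 0.73 ± 0.24 (adjusted p = 0.095), both short of 2-fold. PGD, TALDO1 and TKT, enzymes of the pentose phosphate pathway, had log2 changes of -0.52 to 0.39 over the 4 comparisons and none was called. TKT was on the negative side in all 4 (-0.52, -0.40, -0.48 and -0.36).

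ME1, the cytosolic malic enzyme, makes NADPH while turning malate into pyruvate. It read 8.43 and 8.68 untreated, 9.56 and 9.29 with LPS, 7.74 and 6.91 with epirubicin and 9.19 and 8.87 with both. The epirubicin arrays were the lowest 2 and the LPS arrays the highest 2. Epirubicin alone lowered ME1 2.35-fold (log2 change -1.23 ± 0.32, limma, adjusted p = 0.278), and LPS raised it 3.26-fold in epirubicin-treated cells (1.71 ± 0.32, adjusted p = 0.0105), while the change with LPS alone was 0.87 ± 0.32 (adjusted p = 0.136). The fall with epirubicin was not called without untreated array 1 (-1.36), untreated array 2 (-1.11) or epirubicin array 2 (-0.82), nor in a fit of those 4 arrays alone (-1.23).

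OSGIN1, an NRF2 target induced by oxidative stress, read 6.74 and 4.70 untreated, 7.41 and 6.65 with LPS, 5.85 and 6.45 with epirubicin and 8.37 and 8.49 with both. The 2 untreated arrays are far apart, and the arrays with both agents are the highest. Its untreated and epirubicin means (5.72 and 6.15) lie below 6.52, the 95th percentile of negative controls, so the size of its change is not exact. It rose with LPS after epirubicin (log2 change 2.29 ± 0.60, limma, adjusted p = 0.0431), a call lost without epirubicin array 1 (1.99) or 2 (2.59) and without array 1 (2.34) or 2 (2.23) of both agents. Epirubicin in the presence of LPS gave 1.40 ± 0.60 (adjusted p = 0.449).

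The ME1 window is shown because its match to the element core contains the AP-1 motif TGACTCA within it, so the same letters satisfy both patterns. It lies 137 bases before the start (RefSeq, GRCh38.p14, chr6:83431052-83431301, minus strand), in capitals. A further match, on the opposite strand at position 12 counted from the start, lies beyond the letters shown.
ME1: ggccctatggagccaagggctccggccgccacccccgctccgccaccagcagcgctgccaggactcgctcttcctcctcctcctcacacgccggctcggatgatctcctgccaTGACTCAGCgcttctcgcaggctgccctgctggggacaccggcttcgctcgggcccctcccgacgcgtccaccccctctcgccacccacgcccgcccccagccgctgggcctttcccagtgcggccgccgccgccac

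Of the superoxide dismutases, which turn superoxide into hydrogen peroxide, the mitochondrial SOD2 had the largest change of the 37 genes. It read 10.42 and 10.01 untreated, 18.03 and 18.02 with LPS, 10.80 and 10.38 with epirubicin and 17.97 and 17.93 with both. LPS raised it 224-fold (log2 change 7.81 ± 0.26, limma, adjusted p = 1.72e-06) and 164-fold after epirubicin (7.36 ± 0.26, adjusted p = 3.04e-06). Its level with LPS came close to the array maxima (19.09 to 19.36), where differences between conditions may be compressed, and the epirubicin effect there was -0.07 on the log2 scale. The cytosolic SOD1 gave -0.71 ± 0.23 with epirubicin alone (adjusted p = 0.358) and 0.83 ± 0.23 with LPS after epirubicin (unadjusted p = 0.00617), both short of 2-fold. The extracellular SOD3 was below the 95th percentile of negative controls, and catalase (CAT) had log2 changes of -0.37 to 0.07.

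The phagocyte NADPH oxidase consists of the membrane subunits CYBB (gp91phox) and CYBA (p22phox) and cytosolic subunits that include NCF1 (p47phox), the organiser that brings the complex together, and NCF4 (p40phox). The membrane subunits had log2 changes of at most 0.21 (CYBB) and 0.14 (CYBA) in size. NCF1 read 14.46 and 14.83 untreated, 17.28 and 17.29 with LPS, 15.48 and 15.80 with epirubicin and 17.25 and 17.17 with both. The epirubicin arrays were above the untreated ones without overlap, while the LPS arrays with and without epirubicin were within 0.2 of each other.

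LPS raised NCF1 by 2.64 ± 0.25 on the log2 scale without epirubicin (limma, adjusted p = 0.000301) and by 1.57 ± 0.25 with it (adjusted p = 0.00458). Epirubicin alone gave 1.00 ± 0.25 (unadjusted p = 0.00361, adjusted p = 0.256), just under 2-fold and so not called. It passed without untreated array 2 (1.18) or epirubicin array 1 (1.16). In LPS-treated cells the difference was -0.08 ± 0.25, at a level that only 45 probe sets exceeded with LPS, where differences may be compressed as for SOD2. The interaction was -1.07 ± 0.35 (95% confidence interval -1.87 to -0.27, adjusted p = 0.61, and 0.00574 to 0.774 over the alternative settings). NCF1 has near-identical copies in the genome, NCF1B and NCF1C, and the probe set may read all 3, so its identity is uncertain. NCF4 had log2 changes of -0.72 ± 0.22 (adjusted p = 0.0801) and -0.66 ± 0.22 (adjusted p = 0.102) with LPS, not called.

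**Figure D2:**
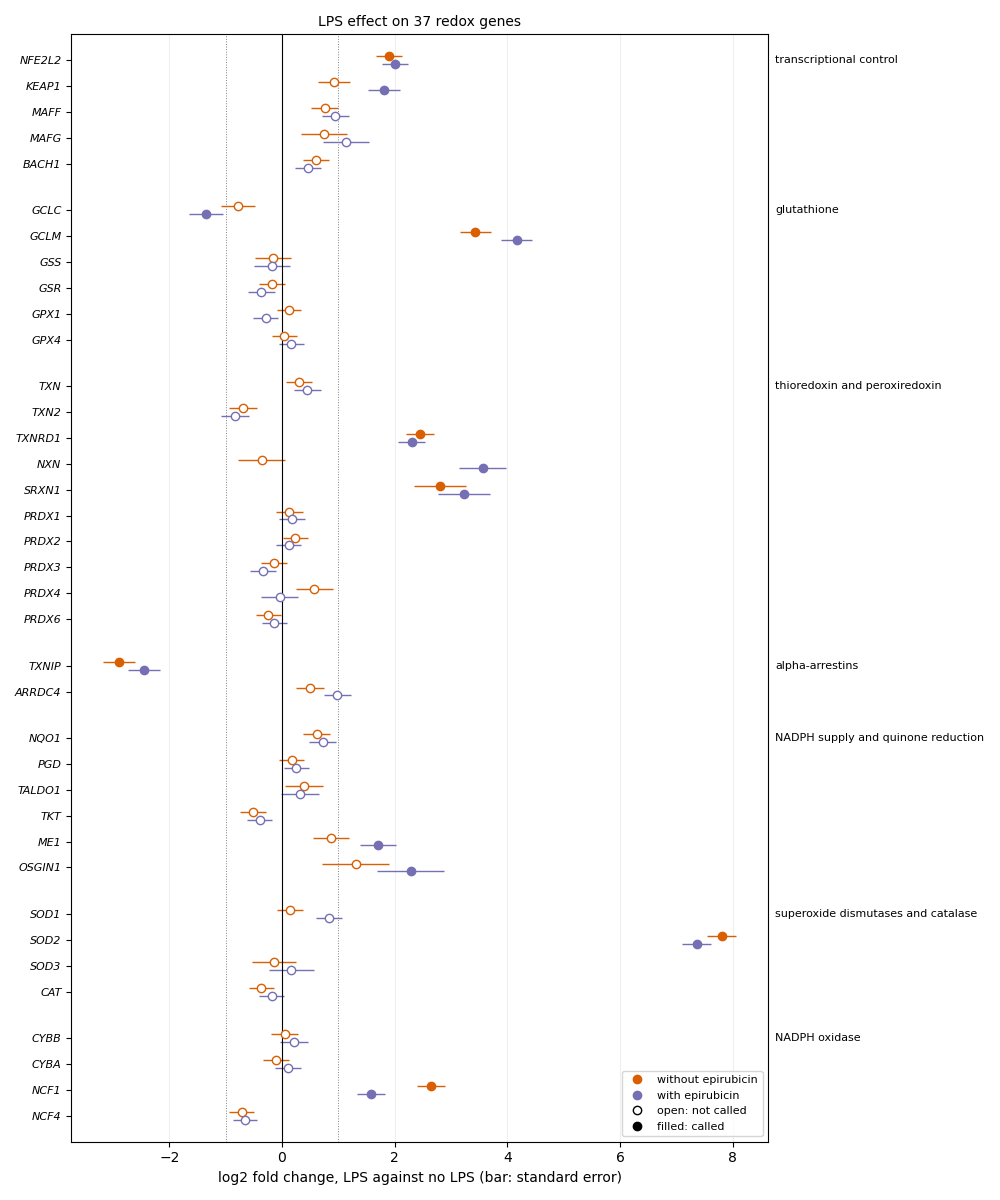
Log2 change with LPS for the 37 redox genes, without epirubicin (orange) and with it (purple), with standard errors as bars, filled symbols for called changes and dotted lines at 2-fold. Most pairs of symbols lie close together, and NXN (-0.36 and 3.56) is the pair farthest apart.

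The LPS effects measured without and with epirubicin rest on different arrays and can be set side by side. Their signs were the same for 32 of the 37 genes and their correlation across genes was 0.901, against 0.885 over the 11321 probe sets with a condition mean of at least 6. Genes are not independent replicates, and this is a description. The interaction tests the difference gene by gene, and none of the 37 passed an adjusted p of 0.05 in limma, where 0.00466% of all probe sets did (1 of 21448). Only NXN and NCF1 had an unadjusted interaction p under 0.05.

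Epirubicin itself called 2 of the 37 genes without LPS, ARRDC4 higher and ME1 lower (5.41%, against 2.26% of all gene probe sets, 1.06% higher and 1.2% lower), and 2 with LPS, NXN and ARRDC4, both higher (5.41%, against 2.66%, of which 1.25% higher and 1.4% lower). ARRDC4 was the only gene called in both. By adjusted p of at most 0.05 in limma, no gene was called without LPS and 1, ARRDC4, with LPS, against 7 and 14 in the LPS comparisons without and with epirubicin. Under that rule 0.014% and 0.103% of all probe sets passed in the epirubicin comparisons, and 11.4% and 11.8% in the LPS comparisons. At a condition mean of at least 6 the shares called with epirubicin by unadjusted p and fold were 3.22% without LPS and 4.05% with it. The median log2 change with epirubicin was 0.02 without LPS and 0.05 with it, and 0.00 and 0.01 over all probe sets. GCLM, NQO1, TXNRD1 and SRXN1 were not called with epirubicin: without LPS their log2 changes were -0.37, -0.17, 0.20 and 0.05, and in LPS-treated cells 0.37, -0.06, 0.05 and 0.47. These 4 do not stand for every NRF2 pathway gene. On the wider list described below, 1 of 12 such genes was called with epirubicin in LPS-treated cells. This was EPHX1, higher by 1.63 ± 0.31 (limma, adjusted p = 0.126), and named after its values were seen. Without LPS none of the 12 was called, and EPHX1 gave 0.81 ± 0.31 (adjusted p = 0.428).

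**Figure D3:**
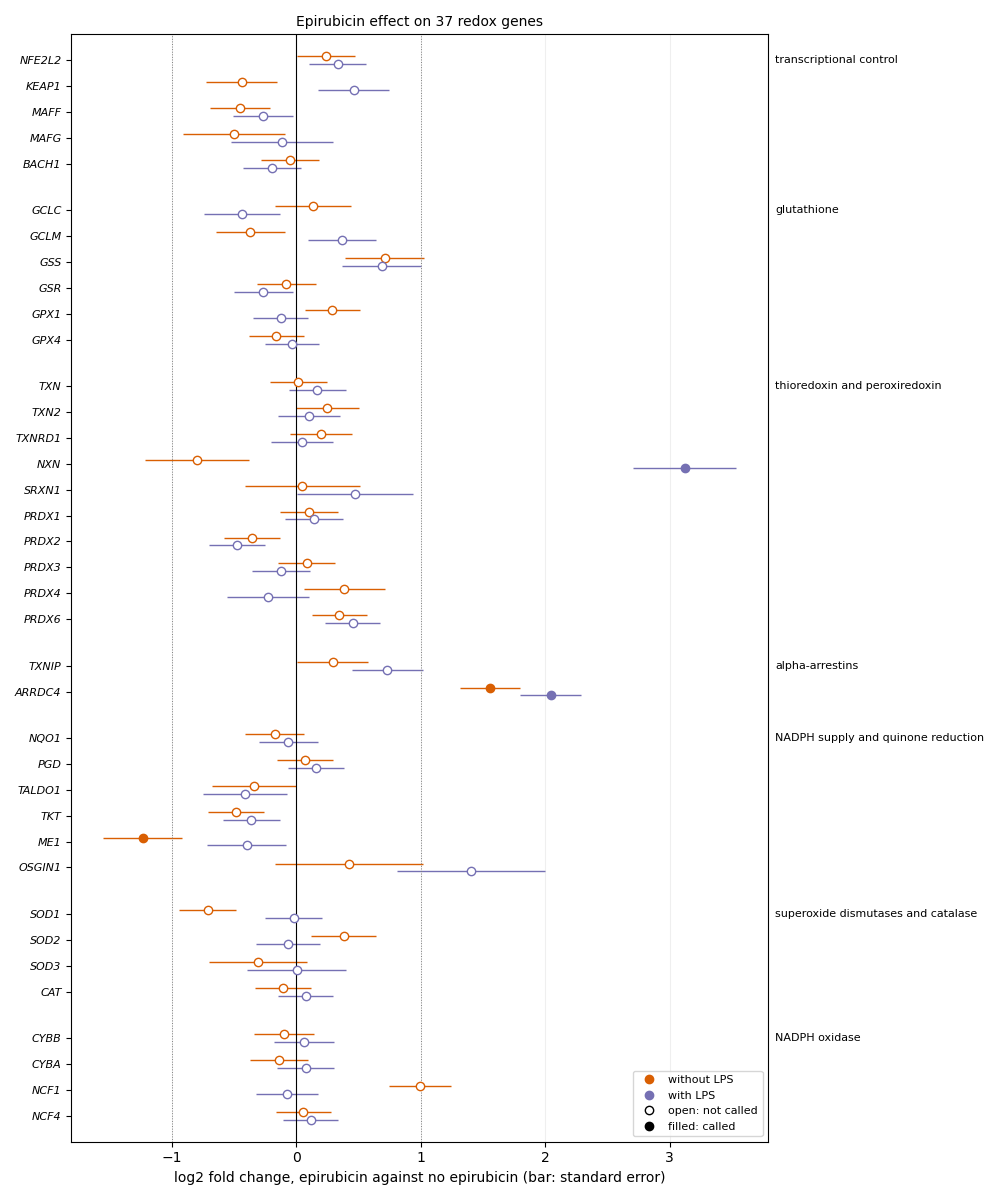
Log2 change with epirubicin for the 37 redox genes, without LPS and with LPS in the 2 colours of the legend, with standard errors as bars, filled symbols for called changes and dotted lines at 2-fold. Most genes lie within 1 unit of 0, ARRDC4 is called in both (1.56 and 2.04), ME1 only without LPS (-1.23) and NXN only with LPS (3.12).

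The epirubicin effects without and with LPS also rest on different arrays. They had the same sign for 24 of the 37 genes, and their correlation across genes was 0.232, or 0.413 over the 35 genes other than ARRDC4 and NXN, against 0.355 over the probe sets with a condition mean of at least 6.

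Of 66 further redox genes on a wider list, 58 had a probe set. With LPS 3 rose and 8 fell without epirubicin (19% of the 58, against 11.7% of all probe sets and 20.6% of those with a condition mean of at least 6), and 7 rose and 7 fell with it (24.1%, against 12.1% and 21.1%). With epirubicin 1 rose and 3 fell without LPS (6.9%, against 2.26% and 3.22%), and 5 rose and 2 fell with it (12.1%, against 2.66% and 4.05%). SLC7A11, the cystine importer that feeds glutathione synthesis, read 7.55 and 8.20 untreated, 11.81 and 11.77 with LPS, 8.73 and 7.69 with epirubicin and 11.98 and 12.03 with both. It rose by 3.92 ± 0.37 (limma, adjusted p = 0.000319) and 3.79 ± 0.37 (adjusted p = 0.000383) with LPS, so the importer and GCLM moved in the same direction. SQSTM1, or p62, the autophagy receptor that binds KEAP1, read 14.56 and 14.50 untreated, 16.18 and 16.17 with LPS, 14.95 and 14.90 with epirubicin and 16.41 and 16.42 with both. It rose by 1.65 ± 0.22 and 1.49 ± 0.22 with LPS (adjusted p = 0.00189 and 0.00308).

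Genes of the wider list that fell with LPS included SESN1, a stress-induced sestrin that restrains mTORC1, which read 11.06 and 11.18 untreated, 7.51 and 7.29 with LPS, 11.43 and 11.37 with epirubicin and 7.65 and 6.62 with both. Its log2 changes were -3.72 ± 0.34 (limma, adjusted p = 0.000256) and -4.27 ± 0.34 (adjusted p = 0.000122). IDH1, the cytosolic isocitrate dehydrogenase that makes NADPH, read 10.49 and 10.31 untreated, 6.15 and 7.20 with LPS, 10.27 and 9.69 with epirubicin and 6.37 and 6.09 with both. It fell by 3.72 ± 0.37 and 3.75 ± 0.37 on the log2 scale (limma, adjusted p = 0.000425 and 0.000436), sizes that are not exact because the mean with both agents (6.23) and 1 LPS array lie below the 95th percentile of negative controls. Its direction was opposite to that of ME1, the other cytosolic source of NADPH called here.

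CBR1, a carbonyl reductase that can reduce anthracyclines, read 9.31 and 10.32 untreated, 7.74 and 7.49 with LPS, 10.23 and 9.72 with epirubicin and 7.41 and 7.91 with both. All 4 arrays with LPS were below the 4 without, and it fell by 2.20 ± 0.38 and 2.31 ± 0.38 on the log2 scale (limma, adjusted p = 0.00727 and 0.00539). MSRB1, which repairs oxidised methionine, read 12.74 and 12.81 untreated, 11.52 and 11.59 with LPS, 12.93 and 12.90 with epirubicin and 11.00 and 11.58 with both. It too was lower in every LPS array, by 1.22 ± 0.26 and 1.63 ± 0.26 on the log2 scale (adjusted p = 0.0193 and 0.00479).

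A further 2 genes of the wider list complete those named by rule. GSTM4, a glutathione S-transferase, read 12.44 and 12.08 untreated, 12.02 and 11.97 with LPS, 10.93 and 10.81 with epirubicin and 10.88 and 10.78 with both, and fell with epirubicin by 1.38 ± 0.24 on the log2 scale without LPS (limma, adjusted p = 0.154) and by 1.16 ± 0.24 with it (adjusted p = 0.144). All 4 epirubicin arrays lay below all 4 others. OPLAH, which recovers glutamate from oxoproline in the glutathione cycle, read 7.02 and 6.96 untreated, 7.05 and 7.17 with LPS, 5.93 and 6.51 with epirubicin and 7.63 and 7.79 with both. It rose with LPS after epirubicin (1.49 ± 0.26, limma, adjusted p = 0.00786), from an epirubicin mean (6.22) below the 95th percentile of negative controls, so the size is not exact, and gave 0.13 ± 0.26 without. HMOX1, haem oxygenase, a gene under NRF2 and BACH1 control that was picked out after its values were seen, was not called in any comparison, with log2 changes of -0.29 to 0.11.

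The motifs were counted over the windows from 250 bases before to 50 after each RefSeq start. TGACNNNGC on either strand stood in at least 1 window of 6 of the 31 genes of the main list that had a promoter entry (19.4%; KEAP1, MAFF, GCLM, TXNRD1, PGD and ME1), against 16.1% of 27305 genes. It stood in 15 of 50 on the wider list (30%). CACGTG stood in 6 of the 31 (19.4%; MAFF, MAFG, GPX1, PRDX3, PRDX4 and ARRDC4) against 8.77% of all genes, and in 4 of the 50 (8%). A gene with more starts has more windows to match. Counted by window, TGACNNNGC stood in 15.6% on the main list, 20.3% on the wider list and 13.3% of all windows. For CACGTG these shares were 15.6%, 5.41% and 7.26%. NQO1, SRXN1 and TXNIP held neither in these windows, while the matching genes include called and uncalled ones. A match in these windows is a description of the letters and not evidence of a binding site. Variants of these strings and elements farther from the start were not searched. GSS, GSR, TXN2, PRDX1, PRDX6, SOD1 and NCF4 had no entry.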

How the data were processed

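RNA from THP-1 macrophages, 2 samples for each of 4 conditions, was hybridised to 8 1-colour human transcriptome arrays (Clariom S HT). The authors deposited log2 expression per probe set after background correction, normalisation and summarisation by a robust multi-array average, plain per the labels and with signal space transformation per the methods, and these values were used unchanged. Of the 24351 deposited rows, 2903 were controls and were dropped, which left 21448 gene probe sets for the tests. The platform annotation gave 17709 of them a single gene name, the identifiers in the study's supplementary tables gave 98 more, and 3641 stayed without a single name. Such a summary compresses very bright and very dim probe sets, and the 2 arrays a condition limit the precision.

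A linear model with a mean for each condition was fitted in limma 3.58.1 (R 4.3.3) with empirical Bayes variances (4 residual and 4.255 prior degrees of freedom), and p-values were adjusted by Benjamini-Hochberg over all 21448 probe sets. Comparisons of 2 conditions were called at p of at most 0.01 and 2-fold, and the interaction at an adjusted p of at most 0.05. The fit was tested on simulated data. Members and lists were chosen with earlier results of these data known. Array values are given for each called member and NQO1, and from the wider list the 8 with the smallest p among called genes. Alternatives were the call rule, fold minimum, centring, a filter at a log2 value of 6, quantile normalisation, the prior variance, the arrays fitted, a replicate block and leaving out each array. Promoters were read from RefSeq (GRCh38.p14) with Python 3.11.15.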

Additional observations from a re-analysis of the deposited data

Results flagged for a closer look

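NCF1 and GPX1 stood out because every array moved one way with epirubicin in the absence of LPS and the other way in its presence. For NCF1 the 2 epirubicin effects differed by -1.07 on the log2 scale (limma interaction, adjusted p = 0.61), and for GPX1 by -0.41 (adjusted p = 0.849), so neither difference passed the test. GPX1 showed the same opposition for LPS without and with epirubicin, which is the same interaction value, -0.41. An opposition of the epirubicin effect held for 2 of the 37 genes (5.41%) and for 5.73% of all gene probe sets, and that of the LPS effect for 1 of the 37 (2.7%) and for 4.01%. With 2 arrays a condition, within-condition outliers could not be tested.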

How the results depend on the processing

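The 12 LPS calls with epirubicin and the 7 without stayed within 1.5 times under every alternative run, at 11 to 13 and 7 to 9 when 1 array was left out. The epirubicin counts were less stable: without LPS the count of 2 went to 0 by adjusted p and to 1 in a fit of the 4 arrays compared. With LPS it went from 2 to 1 by adjusted p. This did not hold for each call. ARRDC4 and NXN kept their epirubicin calls in every alternative that kept the call rule and both arrays of each condition. The fall of ME1 with epirubicin depended on single arrays, and so did the LPS calls of GCLC and OSGIN1. Interaction calls went from 0 to 1 (NXN) by the unadjusted p and 2-fold rule and to 2 (NXN and NCF1) with a prior variance that follows expression and is robust to outliers, and were 0 to 0 on leaving out an array. Over all probe sets the count by adjusted p was 3 against 484 for epirubicin alone and 22 against 570 with LPS, and the interaction count was 347 by the p and fold rule and 45 with the robust prior against 1. The cause of these shifts was not tested beyond the change of rule itself. No result changed direction. Same-numbered arrays did not deviate together over all probe sets (correlations -0.009 to 0.023 over 6 pairs), but whether they were handled together is not stated. A fit with the replicate block left all 5 member counts as they were (2, 2, 7, 12 and 0). With each member on 1 probe set, averaging probe sets of a gene changed nothing. Duplicates of unstated origin, 4 residual degrees of freedom, a single cell line, 1 dose and 1 time bound what these p-values cover.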
